A study of Mus musculus with 18 samples.

Results

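Macrophages are resident phagocytes of the ovary, where they clear dying germ cells and follicle remnants. The 10 genes described here are common macrophage markers, chosen by name and looked up by symbol, and all 10 were found among the 30172 genes of the deposited tables. They are Adgre1 (the F4/80 surface receptor), Csf1r (the receptor for colony stimulating factor 1, on which most tissue macrophages depend), Cx3cr1 (the fractalkine receptor), Cd68 (a lysosomal membrane glycoprotein), the scavenger receptors Mrc1 (mannose receptor, CD206) and Cd163 (hemoglobin-haptoglobin receptor), the 3 chains of complement C1q (C1qa, C1qb and C1qc) and Lyz2 (lysozyme 2). The C1q chains assemble into 1 recognition molecule that tags debris for uptake and, with the proteases C1r and C1s, starts the classical complement cascade.

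Poly-A RNA was sequenced from whole ovaries of wild-type C57BL/6J F1 females on postnatal day 3 (Pd3), 7 (Pd7) or 21 (Pd21). The dams of F1-HHcy pups ate chow with 3% methionine to raise homocysteine (hyperhomocysteinemia, HHcy), those of F1-Control pups ate normal chow, and the pups had no treatment of their own. By the labels the diet began 4 weeks before mating and lasted through pregnancy and lactation, while the methods of the study describe a longer time on it before mating. Each of the 6 groups had 3 libraries, 18 in all with 33630487 to 39399187 fragments on genes, and the sources used here do not say whether libraries came from separate pups or litters, so p-values measure only the spread between these libraries.

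Levels are in FPKM (fragments per unit of gene length and of library size). The diets were compared within a day by limma on log2(FPKM + 1) for genes that reached 1 FPKM in 3 or more libraries. A gene was called where the unadjusted p was under 0.05 and the log2 fold change, F1-HHcy against F1-Control, exceeded 0.58 in size, as in the volcano plots of the study. The added 1 understates the change of low genes, and each adjusted p comes from limma with the Benjamini-Hochberg method across every gene tested. Pd3 and Pd7 were batch 1 and Pd21 was batch 2, so age and batch cannot be told apart for Pd21. An exact permutation test of 3 libraries against 3 cannot go below p = 0.1.

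The sequences in front of 3 markers are shown first, because the C1q chains described below lie side by side and Mrc1 was the marker nearest to the criterion at Pd3. In RefSeq coordinates of GRCm38.p6, C1qb spans chr4:136880126-136886200, C1qc chr4:136889801-136892936 and C1qa chr4:136895916-136898844, while Mrc1 spans chr2:14229414-14332023. PU.1, encoded by Spi1, is an ETS transcription factor that macrophages need, and ETS factors bind elements around a GGAA core. The letters AGGAAGT, chosen after the sequences were seen, were searched on both strands (ACTTCCT on the other) in the 250 bases before the start of each gene of the RefSeq promoter table. They were present in 7.69% of 32851 such windows and in 4 of the 7 markers with an entry, C1qb, C1qc, Lyz2 and Mrc1, and absent from the windows of Cd68, Cd163 and Cx3cr1. C1qa, Adgre1 and Csf1r had no entry. The runs end before the first annotated exon, are written 5′ to 3′ on the strand of the gene, and carry the match in capitals. They cover chr4:136886201-136886450 for C1qb and chr4:136893066-136893164 for C1qc, both genes on the minus strand, and chr2:14229164-14229391 for Mrc1 on the plus strand.
C1qb: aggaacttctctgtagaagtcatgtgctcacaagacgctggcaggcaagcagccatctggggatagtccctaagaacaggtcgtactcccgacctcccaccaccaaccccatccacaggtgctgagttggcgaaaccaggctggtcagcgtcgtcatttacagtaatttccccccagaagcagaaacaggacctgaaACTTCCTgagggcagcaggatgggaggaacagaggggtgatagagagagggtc
C1qc: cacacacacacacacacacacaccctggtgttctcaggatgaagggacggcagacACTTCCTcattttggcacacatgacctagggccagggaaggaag
Mrc1: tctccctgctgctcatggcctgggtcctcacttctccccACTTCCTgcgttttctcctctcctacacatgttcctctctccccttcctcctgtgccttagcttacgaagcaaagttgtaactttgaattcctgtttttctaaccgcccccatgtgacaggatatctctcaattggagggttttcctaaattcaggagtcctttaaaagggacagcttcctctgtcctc
A match describes letters only and shows no binding. Spi1 itself ranged from 0.336 to 1.36 FPKM, with a diet effect on the log2 scale of -0.0063 ± 0.17 (SE, adjusted p = 0.985) at Pd3, and it did not pass the filter at Pd7.

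Lyz2 (chr10:117277541-117282272) lies beside its near-identical copy Lyz1 (chr10:117287795-117292868), and the reading frames share 425 of 447 bases (95.1%), so fragments of either could be assigned to the other. In front of the genes, 80 of 100 bases are shared, shown here around the same match at chr10:117282322-117282421 for Lyz2 and chr10:117292918-117293017 for Lyz1, both genes on the minus strand.
Lyz2: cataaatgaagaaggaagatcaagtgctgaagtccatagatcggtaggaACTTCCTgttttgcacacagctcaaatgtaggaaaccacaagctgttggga
Lyz1: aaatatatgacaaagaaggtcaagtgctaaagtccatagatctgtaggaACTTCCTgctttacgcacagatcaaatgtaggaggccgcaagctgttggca
The tables held 895 to 3085 fragments of Lyz2 per library and 0 to 81 of Lyz1, which was highest at Pd21.

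Among the markers, Lyz2 had the highest level per kilobase (median 41.4 FPKM over 18 libraries), followed by C1qb (11.1), C1qa (9.11), C1qc (8.96), Cd68 (6.14) and Mrc1 (3.89). Csf1r ranged from 1.63 to 5.12 FPKM, Cx3cr1 from 0.802 to 2.87 FPKM, Adgre1 from 0.675 to 2.73 FPKM and Cd163 from 0.0121 to 0.270 FPKM. The ranges of C1qa (4.92 to 15.1 FPKM), C1qb (7.51 to 18.8) and C1qc (6.24 to 17.7) overlapped. Within libraries of Pd21, C1qc per C1qb was 0.751 ± 0.0938 in F1-Control and 0.685 ± 0.0788 in F1-HHcy (SD, n = 3). In whole-ovary RNA, fewer macrophages and less RNA per macrophage cannot be told apart.

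**Figure D1:**
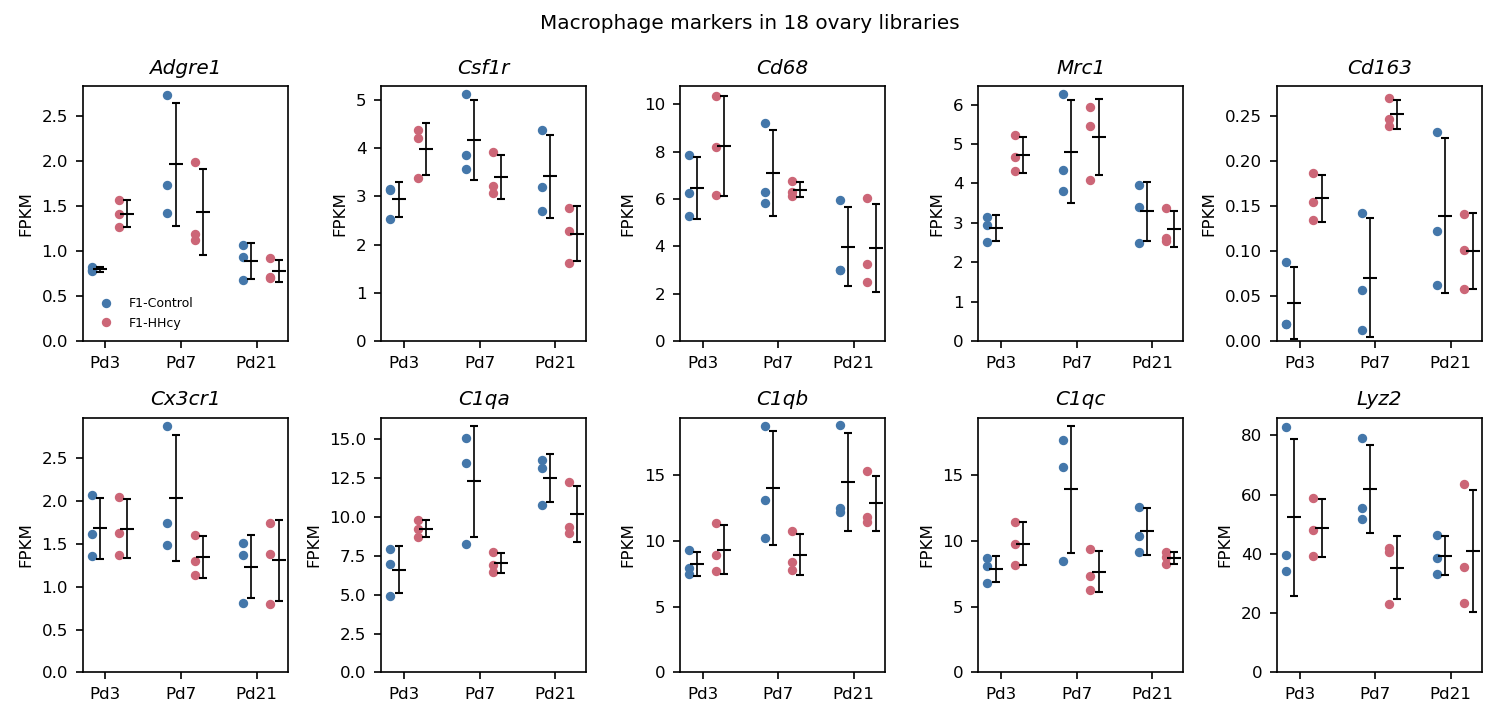
FPKM (y axis, from 0) of each marker in the 18 libraries by day (x axis), with 1 point per library, F1-Control in blue and F1-HHcy in red, and black bars for the mean ± SD of 3 libraries. Adgre1, Csf1r, Mrc1, C1qa and Cd163 were higher in every F1-HHcy than in every F1-Control library at Pd3. On that day 27.9% of all tested genes did not overlap in either direction. At Pd7 C1qa and Lyz2 were lower and Cd163 was higher in every F1-HHcy library, beside 39% of tested genes without overlap. For Pd21 this held for C1qc only, which was lower in F1-HHcy, beside a share of 10.5%. Cd163 was under the FPKM filter and is not part of these shares. Adgre1 passed that filter at Pd3 only through the F1-HHcy libraries.

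Oocyte markers summed to 419 FPKM or more and granulosa cell markers to 142 FPKM or more in every library, so the labelled tissue carried its defining markers. Granulocyte markers, 10 genes such as S100a8 and S100a9, summed to 299.9 to 1140 FPKM in F1-Control and 9.08 to 152 FPKM in F1-HHcy at Pd3 and to 15.8 to 345 FPKM in F1-Control and 1.01 to 25.0 FPKM in F1-HHcy at Pd7, and 6 of 7 tested were called lower at Pd3 and 2 of 2 at Pd7. Erythroid markers such as Hbb-bs were called lower for 9 of 9 at Pd3 and 5 of 5 tested at Pd7. Of all tested genes 4.74% were called lower at Pd3 and 7.35% at Pd7. Markers that passed the filter only through F1-Control libraries entered such counts by being high there, so the counts are descriptions. Lymphocyte markers summed to 7.51 FPKM at most and dendritic cell markers to 13.3 FPKM at most, with Flt3 at 0 to 0.0619 FPKM. The pan-leukocyte gene Ptprc (CD45) ranged from 0.240 to 0.907 FPKM. The part of these cells in the marker values was not tested.

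At Pd3 most markers had higher mean levels in the F1-HHcy group, and none of the 9 that limma tested met the criterion. Of the 9 tested, 4 (Adgre1, Csf1r, Mrc1 and C1qa) lay higher in every F1-HHcy library than in every F1-Control library, beside 27.9% of all tested genes that did not overlap in either direction. At Pd3 Adgre1 passed the FPKM filter only through the F1-HHcy libraries, where it was high. Its part in the counts of this day is a description and no support for a diet effect. None was called by limma, beside 5% of all tested genes called higher and 4.74% called lower, although 4 had an unadjusted p under 0.05. Limma-voom on recovered fragments called 2, Adgre1 and Mrc1, higher, and the share of all genes for that fit is not given. Under a filter of 10 fragments limma-voom called 3 markers higher, Adgre1, Mrc1 and Cd163, beside 6.95% of all genes tested. None of the 9 markers had an adjusted p under 0.05 by limma, beside 3.07% of all tested genes. The log2 fold change was above 0 for 8 of the 9, with a median of 0.30 beside -0.031 over all tested genes, a description that includes Adgre1, which entered the test through the F1-HHcy libraries. Cx3cr1, counted among the 8, was at 0.00032, and its sign changed under some alternatives.

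Mrc1, the mannose receptor, was 2.51, 2.93 and 3.15 FPKM in F1-Control and 5.22, 4.66 and 4.30 FPKM in F1-HHcy libraries at Pd3. The groups did not overlap, and the log2 fold change was 0.57 ± 0.13 (SE, adjusted p = 0.0638). It passed 0.58 with a pseudocount of 0.1 (0.71), with limma-voom (0.73) and with median-ratio scaling (0.59).

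Adgre1 (chr17:57358581-57483529), the F4/80 gene, was 0.822, 0.774 and 0.791 FPKM in F1-Control and 1.57, 1.42 and 1.26 FPKM in F1-HHcy libraries at Pd3. Every F1-HHcy library was above every F1-Control library, and none of the F1-Control libraries reached 1 FPKM. The log2 fold change was 0.43 ± 0.14 (SE, adjusted p = 0.127), and 0.76 with a pseudocount of 0.1. Adgre1 passed the FPKM filter that day only through the F1-HHcy libraries, so these values are descriptions.

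Csf1r (chr18:61105572-61131139) was 2.53, 3.12 and 3.16 FPKM in F1-Control and 3.37, 4.38 and 4.22 FPKM in F1-HHcy libraries at Pd3, without overlap (log2 fold change 0.34 ± 0.14 SE, adjusted p = 0.217). C1qa was 6.98, 7.92 and 4.92 FPKM in F1-Control and 8.72, 9.77 and 9.25 FPKM in F1-HHcy libraries, also without overlap (0.45 ± 0.17 SE, adjusted p = 0.171). For C1qb and C1qc the groups overlapped, at 0.15 ± 0.16 (SE, adjusted p = 0.613) and 0.28 ± 0.15 (SE, adjusted p = 0.316) on the log2 scale.

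Cd68 (chr11:69664213-69666170) ran from 5.28 to 7.85 FPKM in F1-Control and from 6.15 to 10.4 FPKM in F1-HHcy libraries at Pd3, or 0.30 ± 0.20 (SE, adjusted p = 0.428) on the log2 scale. Cx3cr1 (chr9:120048683-120068296) had means of 1.68 ± 0.361 and 1.68 ± 0.346 FPKM (SD, n = 3). For both genes the diets overlapped, and neither was called.

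Lyz2, which neutrophils express too, was 82.9, 34.3 and 39.7 FPKM in F1-Control and 48.0, 58.8 and 39.3 FPKM in F1-HHcy libraries at Pd3 (log2 fold change -0.0089 ± 0.32 SE, adjusted p = 0.990). F1-Control replicate 1 was the highest library for Lyz2 and also for S100a8, at 383 FPKM. Without it the log2 fold change of Lyz2 was 0.37, not called. Over the 18 libraries the r of Lyz2 on the log2 scale was 0.36 with S100a8 and 0.34 with S100a9, and -0.035 and -0.11 with group means removed.

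At Pd7 most markers had lower mean levels in F1-HHcy ovaries. Of the 9 tested markers, 3 (C1qa, C1qc and Lyz2) were called lower in F1-HHcy ovaries, beside 7.35% of all tested genes called lower and 9.06% called higher. Limma-voom also called C1qb, and the share of all genes for that fit is not given. Under a filter of 10 fragments it called C1qa, C1qb, C1qc and Lyz2 lower, beside 9.75% of all genes tested. With that filter it called Cd163 higher, beside 13.1% of all genes tested. The log2 fold change was below 0 for 8 of the 9, with a median of -0.35 beside -0.0015 over all tested genes. That median was -0.52 with a pseudocount of 0.1, -0.56 with limma-voom and -0.22 without F1-Control replicate 1. C1qa and Lyz2 did not overlap between the diets, 2 of 9 markers beside 39% of all tested genes. No marker had an adjusted p under 0.05, beside 11.9% of all tested genes.

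C1qa was 13.5, 15.1 and 8.29 FPKM in F1-Control and 6.88, 6.46 and 7.76 FPKM in F1-HHcy libraries at Pd7, or 12.3 ± 3.55 and 7.03 ± 0.662 FPKM (SD, n = 3), which is -0.69 ± 0.21 (SE, adjusted p = 0.0570) on the log2 scale. C1qc was 15.6, 17.7 and 8.45 FPKM in F1-Control and 6.24, 9.36 and 7.36 FPKM in F1-HHcy libraries (-0.74 ± 0.25 SE, adjusted p = 0.0804). F1-Control replicate 3 was low for both genes and lay near the F1-HHcy libraries. Without F1-Control replicate 2, C1qa was -0.53 and C1qc -0.55, neither called, and C1qc also lost its call without replicate 1 of F1-Control (-0.63) or of F1-HHcy (-0.62).

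C1qb was 13.1, 18.8 and 10.3 FPKM in F1-Control and 8.39, 10.8 and 7.77 FPKM in F1-HHcy libraries at Pd7, with overlap, and its log2 fold change, -0.57 ± 0.21 (SE, adjusted p = 0.108), was just short of the criterion. It was -0.35 and not called without F1-Control replicate 2, and was called without F1-Control replicate 1 (-0.59) or 3 (-0.76) or F1-HHcy replicate 2 (-0.69). The 3 chains summed to 42.2, 51.5 and 27.0 FPKM in F1-Control and 21.5, 26.6 and 22.9 FPKM in F1-HHcy libraries, a ratio of means of 0.588 (exact permutation p = 0.1). Per Csf1r in the same library, the sum was 8.24, 13.4 and 7.58 in F1-Control and 6.68, 6.78 and 7.45 in F1-HHcy. The ratio of these means was 0.716 (two-sided exact permutation p = 0.1, adjusted 0.3 over 18 ratio comparisons). Per Csf1r, the ratio of means was 0.911 at Pd3 (exact permutation p = 0.5) and 1.29 at Pd21 (exact permutation p = 0.4). The plain sum of the chains was 1.25 times as high in F1-HHcy at Pd3 (exact permutation p = 0.1), and at Pd21 0.842 times (exact permutation p = 0.3). The proportions of the chains, C1qa per C1qb and C1qc per C1qb, gave p-values from 0.2 to 0.6 over the 3 days by the exact permutation test of the diets.

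Lyz2 was 79.0, 55.4 and 51.6 FPKM in F1-Control and 42.1, 40.8 and 23.1 FPKM in F1-HHcy libraries at Pd7, without overlap (log2 fold change -0.82 ± 0.24 SE, adjusted p = 0.0566). S100a8 was 119, 5.77 and 35.5 FPKM in the same F1-Control libraries and 0.374, 0.0759 and 6.95 FPKM in the F1-HHcy libraries. Without F1-Control replicate 1, the library with the most S100a8 that day, Lyz2 was -0.63 and still called. Without F1-HHcy replicate 3 it was -0.55 and not called.

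The other tested markers overlapped between the diets at Pd7. Adgre1 was 2.73, 1.74 and 1.42 FPKM in F1-Control and 1.19, 1.99 and 1.13 FPKM in F1-HHcy libraries (-0.28 ± 0.21 SE), and Csf1r was 5.12, 3.85 and 3.56 FPKM in F1-Control and 3.22, 3.92 and 3.07 FPKM in F1-HHcy libraries (-0.23 ± 0.17 SE). Cx3cr1 was at -0.35 ± 0.19 (SE), Cd68 at -0.11 ± 0.18 (SE) and Mrc1 at 0.097 ± 0.20 (SE) on the log2 scale. F1-Control replicate 1 was the highest library of the day for Adgre1, Csf1r, Mrc1 and Cx3cr1, and without it Adgre1 was -0.098 and Csf1r -0.10, neither called.

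Cd163 (chr6:124304636-124330529) stayed under 1 FPKM and was tested on recovered fragments only, among genes with at least 10 fragments in at least 3 libraries. At Pd3 it had 3, 3 and 14 fragments in F1-Control and 22, 25 and 29 in F1-HHcy libraries. At Pd7 it had 23, 9 and 2 against 38, 41 and 40. On both days every F1-HHcy library was higher, and at Pd21 the groups overlapped (11, 21 and 41 against 23, 10 and 18 fragments). Limma-voom called it higher at Pd3, at 2.19 ± 0.70 (SE, adjusted p = 0.136) on the log2 scale, and at Pd7, with 2.33 ± 0.71 (SE, adjusted p = 0.0659), where 6.95% and 13.1% of the genes tested in this way were called higher. The gene passed this filter on both days only through the F1-HHcy libraries, where it was high. The calls are therefore descriptions and no support for a diet effect. The Pd3 call was lost without F1-Control replicate 1 (1.85) or replicate 2 (1.83). With any 1 library left out the Pd7 call remained, under the same limit, at 1.45 without F1-Control replicate 3 to 3.09 without F1-Control replicate 1.

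**Figure D2:**
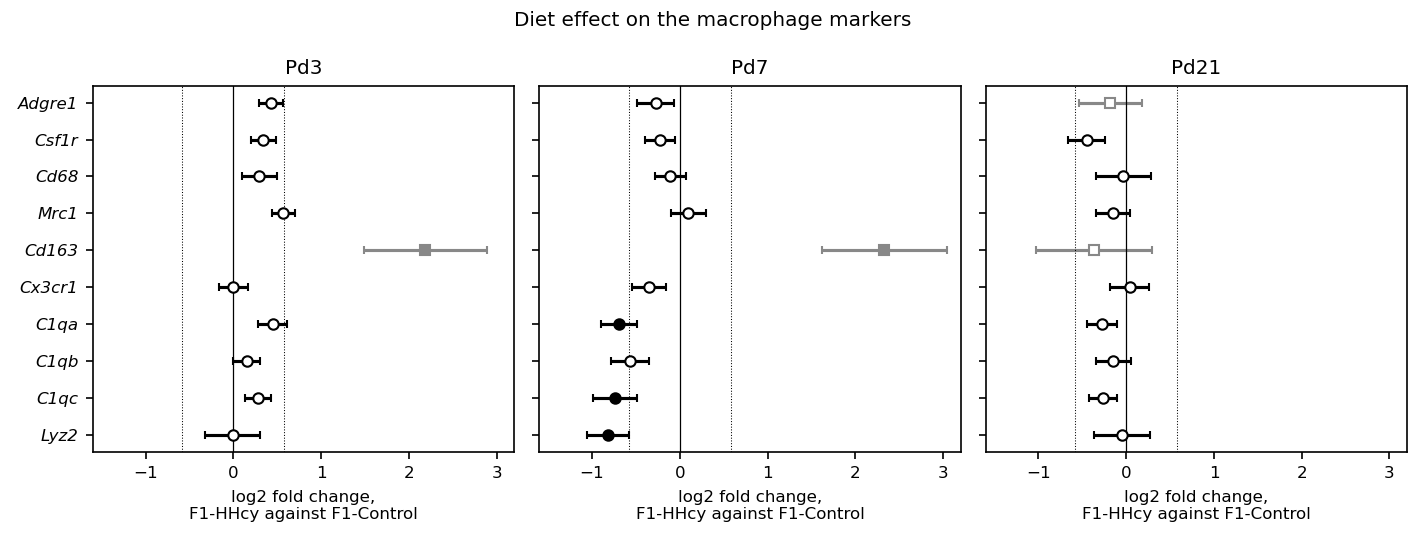
Log2 fold change of F1-HHcy against F1-Control (x axis, bars are the SE of the fit) for each marker (y axis) on each day. Circles are limma on log2(FPKM + 1), grey squares are limma-voom on fragments for markers under the FPKM filter, filled symbols were called, and dotted lines mark 0.58 in size. C1qa, C1qc and Lyz2 are filled on the negative side at Pd7, and Cd163 is filled on the positive side at Pd3 and Pd7. Cd163 passed its filter on those days only through the F1-HHcy libraries.

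At Pd21, 8 markers were tested and none was called, beside 0.0824% of all tested genes called higher and 5.06% called lower. By limma none had an unadjusted p under 0.05 or an adjusted p under 0.05 (2.23% of all tested genes had the latter), and limma-voom called none. Csf1r was 2.69, 3.19 and 4.38 FPKM in F1-Control and 2.76, 1.63 and 2.29 FPKM in F1-HHcy libraries (-0.45 ± 0.21 SE, adjusted p = 0.830). C1qc was 9.14, 12.6 and 10.4 FPKM in F1-Control and 8.80, 8.21 and 9.12 FPKM in F1-HHcy libraries (-0.26 ± 0.16 SE) and was the 1 marker of the 8 without overlap, beside 10.5% of all tested genes. The log2 fold changes of the others ran from -0.28 for C1qa to 0.04 for Cx3cr1. Adgre1, under the filter at 0.675 to 1.07 and 0.705 to 0.921 FPKM, was at -0.18 ± 0.36 (SE, adjusted p = 0.998) on fragments.

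Markers of some other cell types differed between the diets at Pd21. Multiciliated cell markers summed to 54.6 to 207 FPKM in F1-Control and 3.93 to 7.16 FPKM in F1-HHcy libraries, with 5 of 5 tested called lower. Adipocyte markers summed to 22.9 to 279.9 FPKM in F1-Control and 5.64 to 45.0 FPKM in F1-HHcy libraries, with overlap. Of these, 3 of 4 tested were called lower and none had an adjusted p under 0.05. Beside the counts of both lists, 5.06% of all tested genes were called lower. Markers that passed the filter only through F1-Control libraries entered these counts by being high there, so the counts are descriptions. The part of either cell type in the macrophage marker values was not tested.

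Whether the diet effect differed between Pd3 and Pd7 was tested by the interaction of diet and day in 1 model of the 6 groups. All 9 tested markers had a more negative diet effect at Pd7, with a median difference of -0.70 beside 0.0069 over all tested genes. The criterion was met by 4 of them, C1qa with -1.14 ± 0.27 (SE, adjusted p = 0.0759), C1qc with -1.02 ± 0.30 (SE, adjusted p = 0.153), C1qb with -0.72 ± 0.30 (SE, adjusted p = 0.321) and Adgre1 with -0.70 ± 0.24 (SE, adjusted p = 0.222), beside 5.28% of all tested genes in this direction. None had an adjusted p under 0.05, beside 0.411% of all tested genes. C1qb lost its call with limma-voom (-0.78, unadjusted p = 0.0533) and without any 1 of 5 of the 12 libraries, and Adgre1 lost it without F1-Control replicate 1 of Pd7 (-0.52).

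Within F1-Control ovaries all 9 tested markers were higher at Pd7 than at Pd3, with a median log2 fold change of 0.57 beside -0.049 over all tested genes, and 4 were called higher, beside 6.76% of all tested genes. C1qa rose from 6.61 ± 1.53 to 12.3 ± 3.55 FPKM (SD, n = 3), which is 0.79 ± 0.19 (SE, adjusted p = 0.0177) on the log2 scale. Adgre1 rose from 0.796 ± 0.0244 to 1.96 ± 0.686 FPKM, with 0.70 ± 0.17 (SE, adjusted p = 0.0165). C1qc was called at 0.70 ± 0.21 (SE, adjusted p = 0.0434) and C1qb at 0.67 ± 0.21 (SE, adjusted p = 0.0505), while Mrc1 at 0.57 ± 0.18 (SE, adjusted p = 0.0488) was short of 0.58. An adjusted p under 0.05 was found for 4 of the 9 (C1qa, Adgre1, C1qc and Mrc1), beside 11.4% of all tested genes. Without replicate 2 of Pd7, C1qb was 0.45 and C1qc 0.51, and without replicate 1 of Pd7 Adgre1 was 0.52, none of them called.

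Within F1-HHcy ovaries no marker was called between the same days, none had an unadjusted p under 0.05 by limma, and limma-voom called none. Of all tested genes 5.76% were called higher, and the share called lower, the direction of most markers here, is not given. The log2 fold changes ran from -0.48 ± 0.34 (SE) for Lyz2 and -0.35 ± 0.19 (SE) for C1qa to 0.098 ± 0.18 (SE) for Mrc1, with 8 of the 9 below 0. Adgre1 was 1.42 ± 0.154 FPKM at Pd3 and 1.44 ± 0.480 FPKM at Pd7 (SD, n = 3). The interaction and the changes within each diet use the same libraries and are not separate evidence.

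**Figure D3:**
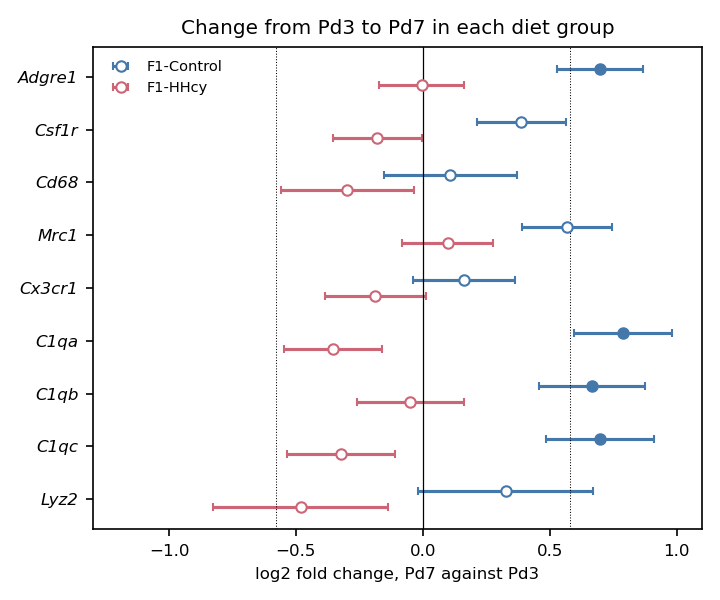
Log2 fold change from Pd3 to Pd7 (x axis, bars are the SE of the fit) for the 9 tested markers (y axis) in F1-Control (blue) and F1-HHcy (red) ovaries, with filled symbols for called markers and dotted lines at 0.58 in size. All 9 F1-Control points lie above 0, and 8 of the 9 F1-HHcy points lie below 0.

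The diet effect was more negative at Pd21 than at Pd3 for C1qa (-0.73 ± 0.27 SE, adjusted p = 0.173), Csf1r (-0.79 ± 0.25 SE, adjusted p = 0.0884) and Mrc1 (-0.72 ± 0.25 SE, adjusted p = 0.141), which met the criterion, 3 of 9 beside 9.04% of all tested genes. C1qa lost its call without F1-Control replicate 3 of Pd3 (-0.56). Between Pd7 and Pd21 no marker was called, none had an unadjusted p under 0.05 by limma, and limma-voom called none, beside 5.55% of all tested genes called in the positive direction. These differences share the libraries of each day with the comparison of Pd3 and Pd7.

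The chains of C1q varied together between libraries, and pairs of receptors did so to different degrees. With group means removed, Pearson's r of log2(FPKM + 1) over the 18 libraries was 0.77 between C1qb and C1qc, 0.69 between C1qa and C1qc and 0.64 between C1qa and C1qb. It was 0.73 between Csf1r and Cx3cr1, 0.73 between Mrc1 and Cx3cr1 and 0.70 between Adgre1 and Mrc1, but 0.40 between Adgre1 and Csf1r and 0.34 between Adgre1 and Cx3cr1. The highest value was that of Csf1r and Cd163 (0.88), and Adgre1 had 0.56 with C1qc. Between Csf1r and the chains it was -0.024 for C1qa, 0.14 for C1qb and 0.39 for C1qc, and between Cd68 and Lyz2 it was -0.49. Of 13421 genes, those most like the mean profile of the 9 more abundant markers included Dcn (r = 0.87), which encodes the stromal proteoglycan decorin, Ms4a7 (0.84), a macrophage gene, Fmo1 (0.81) and C1qtnf3 (0.80). With group means removed they were Fbln5 (0.87), Airn (0.86), Fam124a (0.81), Zfp185 (0.80) and Stk26 (0.80). These are descriptions over 18 libraries that share diets, days, batches and scaling.

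Of 17 other macrophage genes, 10 were tested on each day, with 2 called higher and 1 lower at Pd3, 3 higher and 6 lower at Pd7, and 2 lower at Pd21. Among all tested genes, 5% were called higher and 4.74% lower at Pd3, and 9.06% higher and 7.35% lower at Pd7. At Pd21 the shares were 0.0824% higher and 5.06% lower. These shares also stand beside the counts of the gene lists that follow. Tyrobp, the adaptor DAP12, was 21.3, 17.2 and 15.4 FPKM in F1-Control and 7.15, 12.4 and 11.4 FPKM in F1-HHcy libraries at Pd3 and was called lower (-0.77 ± 0.21 SE, adjusted p = 0.0921), also at Pd7 (-0.81 ± 0.29 SE, adjusted p = 0.0966). Pf4, which platelets express too, was 9.01, 13.8 and 11.7 FPKM in F1-Control and 4.39, 8.50 and 3.81 FPKM in F1-HHcy libraries at Pd7 and was called lower (-0.98 ± 0.26 SE, adjusted p = 0.0381). Trem2 (-0.78 ± 0.20 SE, adjusted p = 0.0339), Marco (-0.79 ± 0.19 SE, adjusted p = 0.0276) and Ms4a7 (-0.70 ± 0.23 SE, adjusted p = 0.0729) were called lower that day as well. Those called higher were Stab1 and Lyve1 at Pd3 and Pd7, receptors that lymphatic endothelium also expresses, and Mertk, a receptor for dying cells, at Pd7 (0.77 ± 0.24 SE, adjusted p = 0.0658). Vsig4 and Siglec1, found on some resident macrophages, reached 0.113 and 0.205 FPKM at most.

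Stab1 was 1.45, 1.86 and 2.60 FPKM in F1-Control and 5.59, 3.65 and 3.09 FPKM in F1-HHcy libraries at Pd3 (0.77 ± 0.22 SE, adjusted p = 0.105) and 4.71, 2.56 and 3.55 against 8.14, 9.75 and 6.96 FPKM at Pd7 (1.03 ± 0.20 SE, adjusted p = 0.0127), without overlap on either day. Mrc1, which lymphatic endothelium also expresses, had an r with Stab1, a gene of the macrophage list, of 0.72 over the 18 libraries and 0.85 with group means removed. It was lower with Lyve1 of the same list (0.25 and 0.38) and with the lymphatic markers Flt4 (0.25 and 0.61) and Ccl21a (0.10 and 0.24). For Cd163 it was 0.77 and 0.38 with Stab1 and 0.49 and -0.23 with Lyve1. Of 4 lymphatic endothelial markers, 2 were called higher at Pd3 and 3 at Pd7, with sums of 111 to 113 FPKM in F1-Control and 65.1 to 153 FPKM in F1-HHcy at Pd3 and 113 to 139.8 FPKM in F1-Control and 226 to 241 FPKM in F1-HHcy at Pd7. Mrc1 per Csf1r was 1.23, 0.988 and 1.22 in F1-Control and 1.70, 1.52 and 1.33 in F1-HHcy libraries at Pd7 (exact permutation p = 0.1, adjusted 0.3). The ratio of F1-HHcy to F1-Control means was 1.24 at Pd3, 1.32 at Pd7 and 1.33 at Pd21 (exact permutation p = 0.1, 0.1 and 0.3). The part of lymphatic cells in the Mrc1 and Cd163 values was not tested.

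**Figure D4:**
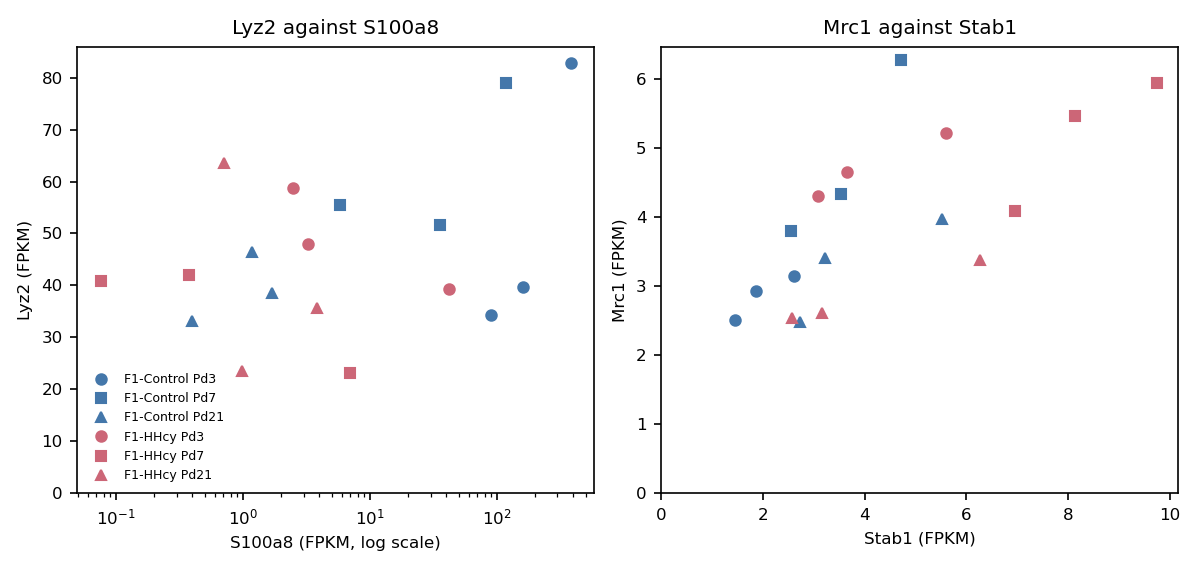
Left, Lyz2 against the granulocyte gene S100a8 (x axis on a log scale), and right, Mrc1 against Stab1, all in FPKM, with 1 point per library, color for the diet and shape for the day. The highest Lyz2 values, 82.9 and 79.0 FPKM, are in F1-Control libraries with 383 and 119 FPKM of S100a8, although r between these genes is -0.035 with group means removed, and Mrc1 tends to be higher where Stab1 is higher.

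The ligands of the receptors changed in different directions. Csf1, a ligand of Csf1r, was 0.841, 1.08 and 1.51 FPKM in F1-Control and 3.12, 2.88 and 2.10 FPKM in F1-HHcy libraries at Pd3 and was called higher (0.79 ± 0.18 SE, adjusted p = 0.0617). Il34, its other ligand, was 9.78, 9.94 and 6.07 FPKM in F1-Control and 3.76, 3.32 and 4.74 FPKM in F1-HHcy libraries at Pd7 and was called lower (-0.94 ± 0.20 SE, adjusted p = 0.0188). Cx3cl1, the ligand of Cx3cr1, was 7.78, 8.67 and 8.60 FPKM in F1-Control and 3.87, 5.28 and 6.24 FPKM in F1-HHcy libraries at Pd3 and was called lower (-0.63 ± 0.16 SE, adjusted p = 0.0818). None of the 3 ligand genes was called at Pd21.

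Among the 5 genes of the C1 proteases and their inhibitor, 3 were tested, and 1 was called higher at Pd3, 1 at Pd7 and none at Pd21. Serping1, the C1 inhibitor, was 31.8, 41.0 and 35.0 FPKM in F1-Control and 82.7, 81.1 and 57.4 FPKM in F1-HHcy libraries at Pd3 (1.01 ± 0.17 SE, adjusted p = 0.0307). C1s1 was 20.0, 11.7 and 17.7 FPKM in F1-Control and 31.7, 30.5 and 31.1 FPKM in F1-HHcy libraries at Pd7 (0.91 ± 0.19 SE, adjusted p = 0.0151), the day on which C1qa and C1qc were called lower. In both cases every F1-HHcy library was the higher.

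Of 6 genes of hemoglobin and heme clearance, the pathway of Cd163, 5 were tested, with 1 called higher and 3 lower at Pd3, 1 higher and 1 lower at Pd7, and 1 lower at Pd21. Hmox1, heme oxygenase 1, was 45.0, 63.1 and 60.1 FPKM in F1-Control and 32.5, 25.3 and 23.4 FPKM in F1-HHcy libraries at Pd7 (-1.02 ± 0.18 SE, adjusted p = 0.00848), lower in every F1-HHcy library. Blvrb, biliverdin reductase B, was at -0.96 ± 0.25 (SE, adjusted p = 0.0857) and the iron exporter Slc40a1 at -0.64 ± 0.19 (SE, adjusted p = 0.112) at Pd3. Lrp1, a receptor of heme-hemopexin and many other ligands, was called higher at Pd3 (0.89 ± 0.15 SE, adjusted p = 0.0320) and Pd7 (1.26 ± 0.29 SE, adjusted p = 0.0229). Hp, haptoglobin, was called lower at Pd3 (-0.77 ± 0.31 SE, adjusted p = 0.205) and Pd21 (-3.28 ± 0.38 SE, adjusted p = 0.00480).

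Among myeloid transcription factor genes, Cebpa was called higher at Pd3 (0.67 ± 0.22 SE, adjusted p = 0.133) and at Pd7 (0.96 ± 0.19 SE, adjusted p = 0.0143), Irf5 was called lower at Pd7 (-0.68 ± 0.19 SE, adjusted p = 0.0478), and none of the 7 listed was called at Pd21. Of 8 lysosomal genes none was called at Pd3 or Pd21, and Ctss, a protease of antigen-presenting cells, was called lower at Pd7 (-0.72 ± 0.19 SE, adjusted p = 0.0423) together with Lamp1 (-0.63 ± 0.19 SE, adjusted p = 0.0594). Of 8 leukocyte genes 6 were tested, all with a log2 fold change below 0 at Pd3 and at Pd7. Coro1a (-0.88 ± 0.18 SE, adjusted p = 0.0453) and Rac2 (-1.11 ± 0.27 SE, adjusted p = 0.0707) were called lower at Pd3, Cd52 (-0.87 ± 0.22 SE, adjusted p = 0.0318) and Arhgdib (-0.68 ± 0.20 SE, adjusted p = 0.0515) at Pd7, and 1 of the 6 at Pd21. Of 5 monocyte markers 2 were tested at Pd3 and at Pd21 with none called, and 1 was tested and called higher at Pd7.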

How the data were processed

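The 18 ovary libraries were analysed from the tables deposited by the authors, which hold 1 value per gene symbol and library. The deposited unit is not named in the sources used here and was taken to be FPKM. Dividing out gene length and library size left whole fragments (tolerance 0.02) in 99.989% of 27294 genes above 0 in 3 or more libraries. The length was searched for each gene, so genes found in few libraries can meet this by accident. The fragments summed to within 0.00239% of the library size fitted for each library. According to the submitters' processing notes, FastQC 0.11.9, Trimmomatic 0.39, STAR 2.7.9a, featureCounts 2.0.1, Subread and DESeq2 1.36.0 were used with GRCm38/mm10.

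Tests were run with limma 3.58.1 (R 4.3.3, variance trend, two-sided), by day for the diets and in 1 model of the 6 groups (14607 genes) for interactions and age, and were checked on simulated data. The markers and 20 further gene lists were chosen with earlier results of these data known. Of each list, the text names the 3 most abundant genes, the 3 with the smallest p of a day, genes called on some days only, and the 5 genes most like the markers. Some genes that this rule names are not reported here. Spi1, Vsig4, Siglec1, Flt3 and Ptprc were named after their values were seen. Alternatives were another pseudocount (0.1), no low-value filter, median-ratio scaling, limma-voom on fragments, the replicate number as block, scaling without mitochondrial and hemoglobin genes, other sets of libraries in the model, an adjusted p threshold and each library left out. The 10-fragment filter, the ratios within a library and the motif were added after seeing the data. Figures used matplotlib 3.10.9 in Python 3.11.15, and exact permutation tests used scipy 1.17.1.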

Additional observations from a re-analysis of the deposited data

Results flagged for a closer look

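The diet effect differed between days for several macrophage markers by the interaction test at an unadjusted p under 0.05 and a size above 0.58, and none of these differences had an adjusted p under 0.05 by limma. The difference of the log2 fold changes, Pd7 minus Pd3, was -1.14 for C1qa, -1.02 for C1qc, -0.72 for C1qb and -0.70 for Adgre1. Pd21 minus Pd3, it was -0.73 for C1qa, -0.79 for Csf1r and -0.72 for Mrc1, and these days also differ in batch. Groups of 3 libraries were not tested for single libraries that stand apart.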

How the results depend on the processing

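At Pd3, where no marker was called, the count was 2 with a pseudocount of 0.1, 1 with median-ratio scaling, 2 with limma-voom on fragments and 3 with limma-voom and the 10-fragment filter, which admits Cd163, and it ran from 0 to 1 with single libraries left out. Both counts of 2 include Adgre1, which passed the FPKM filter only through the F1-HHcy libraries. At Pd7, where 3 were called, it was 5 with that filter, 0 with the adjusted p as threshold, and 1 to 4 with single libraries left out. With that filter limma-voom called 6.95% of all genes tested higher and 6.55% lower at Pd3, and 13.1% and 9.75% at Pd7. Shares for the other alternatives are not given. The count of differences between Pd7 and Pd21 ran from 0 to 2 with single libraries left out, and the other counts stayed within 1.5 times under every alternative run. Replicate numbers are only numbers in the labels, and same-numbered libraries of the diets did not deviate together (correlations from -0.338 to 0.0872 over the 9 pairs). With the replicate block, 0 markers were called at Pd3, 3 at Pd7, 0 at Pd21, 4 for Pd7 against Pd3 and 3 for Pd21 against Pd3, as many as without it.

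Values near 0 changed sign, and the cause was not tested. With median-ratio scaling Lyz2 was 0.018 at Pd3 and 0.010 at Pd21, Cd68 was 0.011 at Pd21, the difference for Lyz2 between Pd3 and Pd21 was 0.0033, and Adgre1 from Pd3 to Pd7 in F1-HHcy was 0.018. With scaling that leaves out mitochondrial and hemoglobin genes, Cx3cr1 was -0.0030 at Pd3. With single libraries left out, the log2 fold change ran from -0.097 to 0.10 for Cx3cr1 and -0.25 to 0.37 for Lyz2 at Pd3. It ran from -0.028 to 0.27 for Mrc1 and -0.22 to 0.066 for Cd68 at Pd7, and from -0.10 to 0.21 for Cx3cr1, -0.42 to 0.28 for Lyz2, -0.32 to 0.23 for Cd68, -0.27 to 0.044 for C1qb and -0.84 to 0.092 for Cd163 on fragments at Pd21. Differences of the diet effect ran from -0.21 to 0.34 for Cd68 (Pd21 minus Pd7), -0.10 to 0.21 for Cx3cr1 and -0.42 to 0.29 for Lyz2 (Pd21 minus Pd3). From Pd3 to Pd7, values ran from -0.069 to 0.24 for Cd68 and -0.026 to 0.29 for Cx3cr1 in F1-Control, and from -0.16 to 0.084 for Adgre1 and -0.17 to 0.088 for C1qb in F1-HHcy. Depth limited Cd163, with 2 to 41 fragments per library.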

Other observations

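Mast cells are another leukocyte resident in tissue. Of 5 mast cell markers 4 were tested, with none called at Pd3, where they summed to 39.1 to 47.6 FPKM in F1-Control and 41.2 to 55.5 FPKM in F1-HHcy libraries. At Pd7 all 4 were called lower (37.3 to 59.4 against 8.50 to 36.1 FPKM summed), and at Pd21 3 were (12.4 to 25.3 against 4.77 to 8.75 FPKM). Beside these counts, 7.35% of all tested genes were called lower at Pd7 and 5.06% at Pd21. The chymase gene Mcpt4 was 3.68, 3.51 and 6.15 FPKM in F1-Control and 1.79, 0.707 and 1.20 FPKM in F1-HHcy libraries at Pd21, or -1.28 ± 0.25 (SE, adjusted p = 0.0423) on the log2 scale by limma.

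Of 5 blood endothelial markers, 3 were called higher at Pd3 and none at Pd7 or Pd21. Of 5 theca and stroma markers 2 were called higher at Pd3 and 3 at Pd7, and of 6 granulosa cell markers 4 and 3. Of 7 oocyte markers 2 were called higher and 1 lower at Pd3, and 6 lower at Pd7. Among all tested genes, 5% were called higher and 4.74% lower at Pd3, and 9.06% higher and 7.35% lower at Pd7.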
